A study of Mus musculus with 12 samples.

Results

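Fatty acid oxidation and ketogenesis in the liver were examined as a set of 39 genes out of 41128 in the expression table. The members were chosen by gene symbol as genes of PPARA-driven oxidation in mitochondria, peroxisomes and microsomes and of ketone body formation, and the rule uses no expression value. All 39 members were found, and all 39 reached the mean value of 10 that was required for testing, as did 11782 genes in all. Livers came from 12 C57BL/6 mice, with 1 RNA sequencing library per mouse and 3 libraries per labelled sex in each condition. All mice were kept in sterile isolators until weaning at day 21. Germ-free (GF) mice then stayed in the isolators. Conventionalized (CV) mice were transferred at that time to cages with used bedding taken from the animal facility. All mice were 6 weeks old at sampling, 3 weeks after weaning, and the labels name no other allele or agent. RNA came from liver tissue that had been snap frozen, so a lower value of a gene could reflect fewer cells that express it or less RNA per cell, and these cannot be told apart.

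Fatty acids that enter a hepatocyte are bound and activated to acyl-CoA, and long chains are carried into mitochondria as acylcarnitines. Mitochondrial beta-oxidation then shortens them to acetyl-CoA, which the liver turns into ketone bodies during fasting, while peroxisomes shorten very long chains and cytochromes of the CYP4A family oxidize the far (omega) end in microsomes. PPARA is a nuclear receptor that binds fatty acids, pairs with RXRA on repeats of a short half-site and drives many of these genes together, which makes the set a classical readout of hepatic PPARA activity.

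Promoter sequences are shown because the members share this regulator. A RefSeq table for build GRCm38.p6, spanning 250 bases before to 50 bases after each start site, held 35 promoters of 32 members. The half-site AGGTCA was present on either strand in 10 of these 35 promoters (28.6%, 9 members) and in 5340 of all 32851 promoters (16.3%). A pair of direct repeats of AGGNCA separated by 1 base, the arrangement bound by PPARA with RXRA, was present on either strand in 1 of the 35 (2.86%) and in 125 of the 32851 (0.381%). A match describes letters in this window and is neither a bound site nor a cause of a change, and a promoter without a match may hold a site elsewhere. The single member promoter with the paired arrangement belonged to Fabp1, in which it lay on the minus strand at bases -67 to -55 from the RefSeq start, 3 bases before the gene start in the GENCODE annotation. The pair overlaps the first half-site match of this promoter. Capitals mark the paired arrangement in the first window and the half-site in the others, all written 5′ to 3′ on the strand of the gene:
Fabp1, chr6:71199787-71199839 (+): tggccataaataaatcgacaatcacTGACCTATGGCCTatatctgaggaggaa
Slc27a2, chr2:126552794-126552819 (+): accacgccttTGACCTtttcaacgtg
Cpt1a, chr19:3323197-3323222 (+): gtttccttacTGACCTcctccccgca
Acadvl, chr11:70015500-70015525 (-): ggatcaccctAGGTCAggtagaatac
Plin2, chr4:86670262-86670287 (-): tcaggaccccTGACCTaagtcagaca
Acot4, chr12:84038356-84038381 (+): ccccgaagcaTGACCTttggccggtc
Acot3, chr12:84052152-84052177 (+): tattagctctTGACCTtgtctgtctg
Matches were also present in the promoters of Acadm and Acot12. The members with a half-site thus came from uptake, shuttle, mitochondrial, thioesterase and lipid droplet genes, and no promoter of the peroxisomal beta-oxidation branch in the table held one in this window.

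The libraries differed in depth and composition between conditions. GF libraries held 5993619 to 10975691 reads and CV libraries 8890529 to 15290835. The mitochondrial ribosomal RNA genes took 9.36% to 16.4% of reads in GF libraries and 1.39% to 6.32% in CV libraries, and 7 abundant loci that include them (chosen after their values were seen) took 41.8% to 69.4% and 5.39% to 21.9%. The 2 libraries labelled CV male 2 and CV male 3 lay between, at 21.4% and 21.9%, against at most 7.96% in the other CV libraries. The library labelled CV male 3 also held 0 reads of 4 Y-linked genes and an Xist value of 2382, against 796 to 1314 Y-linked reads and Xist values of at most 21.3 in the other 5 libraries labelled male, so its label was contradicted. Median changes of the set are also given without CV male 2 and CV male 3, and the sex differences and Acot3 without CV male 3. Apart from the omissions of 1 library at a time, all other values in males or over both sexes include them. Hepatocyte markers were abundant in every library: 6 of 7 listed markers were in the table (Tf was not analysed here), and their summed value was 86397 to 408997 in GF and 337497 to 543280 in CV. Of the 6, 4 were called higher in CV over both sexes, 0 in males and 3 in females. Of other tissues, 5 blood markers summed to 2777 to 32885 in GF and 916 to 3159 in CV. In CV 4 of the 5 were called lower over both sexes, 1 in males and 4 in females. The 6 Kupffer cell markers summed to 754 to 1484 in GF and 907 to 2075 in CV, with 4 called higher over both sexes, 2 in males and 2 in females. Among all genes tested 32.3% were called higher and 28.7% lower over both sexes, 14.1% and 15.4% in males, and 29.8% and 26.0% in females. None of 6 muscle and 4 kidney markers was high enough to test, with sums of at most 8.5 and 1.3. Of 6 adipose markers 1 (Fabp4) was tested and was not called, and Adipoq, Plin1, Lep and Ucp1 were at 0 in every GF library and at most 7.95 in CV. Cfd was at 3.99 to 28.34 in GF males, at 0 in GF females and at most 36.57 in CV, in CV male 2. Of 4 intestinal markers Muc2 was not analysed here, Sis was at 0 and Vil1 at most 3.99 in every library, and Fabp2, which was higher in CV, was the only one tested.

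Most oxidation genes were higher in CV than in GF livers. Over both sexes, 34 of 39 members were called higher and 0 lower at an adjusted p under 0.05 in the limma test, or 87.2% of members against 32.3% of all tested genes called higher (28.7% were called lower). The median member was 1.50 higher in CV on the log2(value + 1) scale, where 1 unit is a doubling, and the median of all tested genes was 0.075. In 30 of the 39 members the change was at least 1. In males alone 29 members were higher and 0 lower, with a median change of 1.09, against 14.1% of all genes higher and 15.4% lower. In females alone the counts were 35 and 0 and the median change 1.98, against 29.8% higher and 26.0% lower. Every CV library exceeded every GF library in 33 members among males (22.0% of all genes), in 37 among females (34.0%) and in 27 over all 12 libraries (15.6%). No member had every CV library of a sex below every GF library of that sex.

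**Figure D1:**
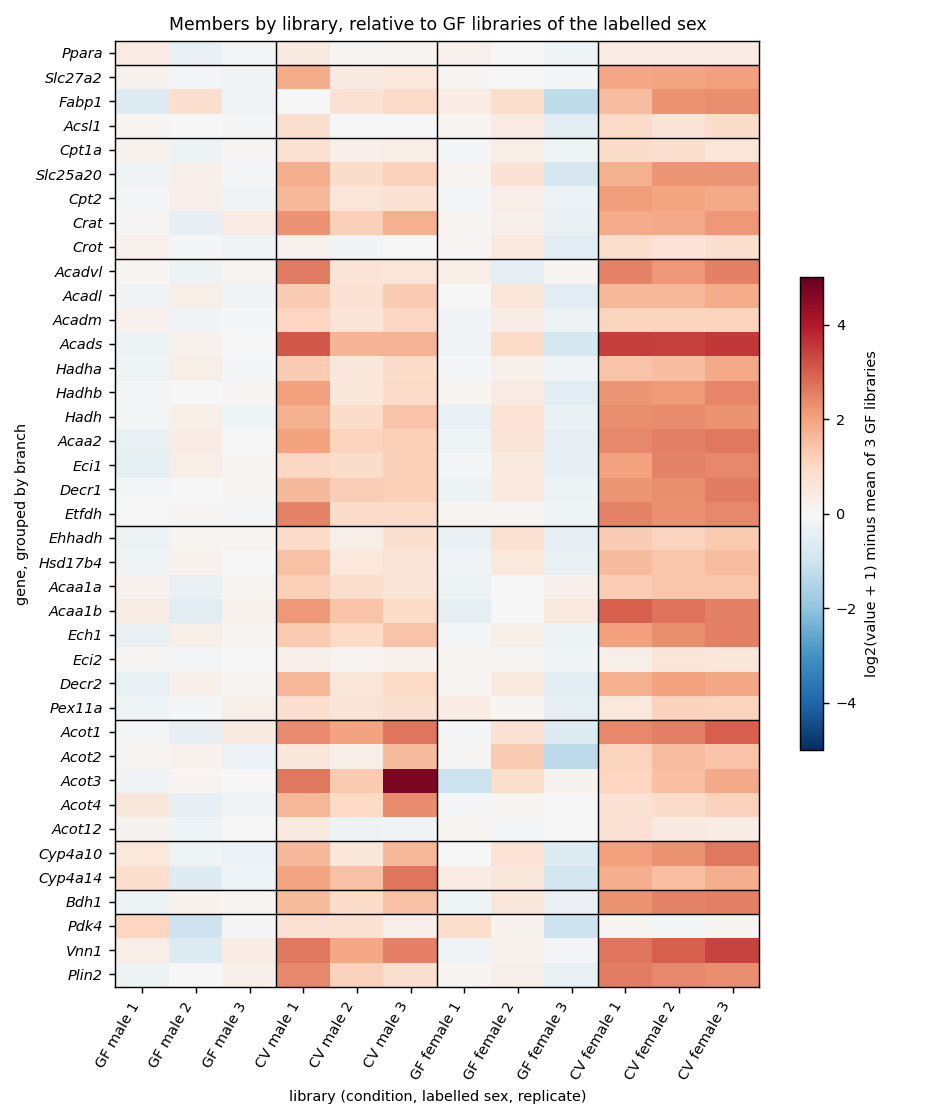
Log2(value + 1) of each of the 39 members (rows, grouped by branch) in each of the 12 libraries (columns), minus the mean of the 3 GF libraries of the labelled sex; red is higher and blue lower. The median member in CV male 1 and the CV females lies 1.62 to 1.97 above the GF mean, while CV male 2 and CV male 3 are paler, at 0.719 and 0.974. CV male 3 is set against the GF males by its label, which was contradicted.

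Measured against the GF mean of the labelled sex, the shift was smaller in the 2 CV libraries with more ribosomal RNA. The median member was at 1.62 in CV male 1, 0.719 in CV male 2 and 0.974 in the library labelled CV male 3. Their mitochondrial ribosomal RNA shares were 1.39%, 5.89% and 6.32%. For CV male 3 the reference was the GF males, by a label that was contradicted. Its median against the GF females was not computed, so the size of its shift depends on that label. In the CV females, with shares of 1.51% to 1.81%, it was at 1.76, 1.97 and 1.92. Among GF libraries the order was different: GF female 2, with the highest share (16.4%), had the highest median (0.426), and GF female 3 the lowest (-0.367). Without CV male 2 and CV male 3, an alternative chosen after seeing the data, the median member change was 1.80 over both sexes and 1.62 in males. That leaves CV male 1 alone in its group, so no calls are given.

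**Figure D2:**
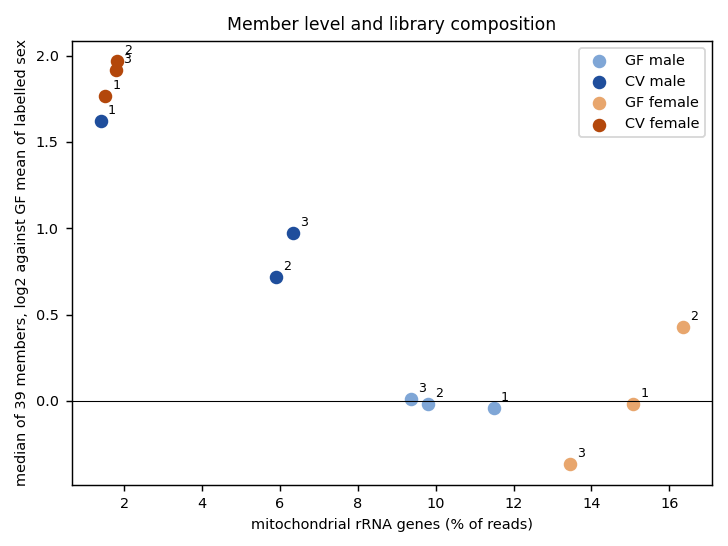
Median of the 39 members relative to the GF mean of the labelled sex (vertical axis, log2) against the share of reads on the mitochondrial ribosomal RNA genes (horizontal axis, %), 1 point per library, with replicate numbers. GF and CV libraries do not overlap on either axis, and CV male 2 and CV male 3 lie between the other CV libraries and the GF libraries. The vertical position of CV male 3 depends on its contradicted label.

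The calls did not hold once this composition entered the model. With the mitochondrial ribosomal RNA share as a covariate, 0 of 39 members were called over both sexes, in males or in females, while 13, 16 and 11 had an unadjusted p under 0.05 (1985, 2289 and 1615 of all genes). Their median change was then 1.24 over both sexes and 36 of 39 changes were positive. Of the variance of this share 93.5% lay between the 4 groups, and standard errors of the members were 2.45 to 3.77 times larger, so condition and composition cannot be told apart. Scaling each library to its summed hepatocyte markers, also chosen after seeing the data, left 11 members higher and 4 lower over both sexes, 4 higher in males, and 3 higher and 2 lower in females. Of the 11782 genes tested, 6744 were called in either direction over both sexes, 1031 in males and 6718 in females. Under that scaling the median of all genes was -1.02 and that of the members 0.381, so the members lay 1.40 above all genes, against 1.42 as deposited. The 4 called lower were Ppara (-0.82), Crot (-0.69), Eci2 (-0.77) and Acot12 (-0.84). Of members called higher as deposited, Acsl1 (-0.55), Cpt1a (-0.49), Pex11a (-0.26), Ehhadh (-0.16), Acadm (-0.099) and Acot2 (-0.015) had changes below 0 under it. Acads (1.72), Vnn1 (1.57), Acot1 (1.38) and Acaa1b (1.01) remained the most raised of those called.

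Ppara (ENSMUSG00000022383, chr15:85734983-85802819, plus strand, GRCm38), which encodes the receptor itself, was not called different. Its values were 1447, 870.3 and 1054 in GF males, 1506, 1129.7 and 1177 in CV males, 1079, 926 and 811 in GF females and 1223, 1223 and 1242 in CV females. The conditions overlapped in males, whereas in females all CV libraries lay above all GF libraries. The change was 0.30 ± 0.17 (SE, adjusted p = 0.145) over both sexes, and its sign turned (-0.163) when libraries were scaled to reads outside the abundant loci.

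Genes of uptake, binding and activation were higher over both sexes in 3 of 3 cases, with a median change of 1.30. For this and the following branches, the share of all genes called higher was 32.3% over both sexes, 14.1% in males and 29.8% in females. Slc27a2, a fatty acid transporter with acyl-CoA synthetase activity, was at 4531, 3871 and 3687 in GF males, 14521, 5423 and 5728 in CV males, 2655, 2604 and 2417 in GF females and 9825, 10016 and 10685 in CV females. All CV libraries exceeded all GF libraries, CV male 1 most clearly, and the change was 1.46 ± 0.24 (SE, adjusted p = 7.97e-05). With the ribosomal RNA covariate it was -0.19. Fabp1, the fatty acid binding protein of liver cytosol whose promoter held the paired repeats, had values of 34303, 97031 and 48229 in GF males, 55249, 89487 and 105794 in CV males, 25514, 35923 and 8221 in GF females and 57333, 92307 and 98961 in CV females. Male libraries of the 2 conditions overlapped and female ones did not, and the change was 1.30 ± 0.42 (SE, adjusted p = 0.0125) over both sexes and 0.57 ± 0.59 (SE, adjusted p = 0.487) in males alone. The GF libraries with the lowest Fabp1 in each sex, GF male 1 and GF female 3, also had the lowest summed hepatocyte markers of their sex in GF, 172224 and 86397. Acsl1, which activates long-chain fatty acids, read 3952, 3674 and 3547 in GF males, 6520.2, 3809 and 3810.3 in CV males, 2903, 3673 and 1917 in GF females and 5361, 4240.1 and 5233 in CV females. It overlapped in males, and its change of 0.57 ± 0.22 (SE, adjusted p = 0.0306) over both sexes lost its call without GF male 3, GF female 3, CV male 1, CV female 1 or CV female 3, with changes of 0.44 to 0.68 over the 12 omissions of 1 library.

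Of the carnitine shuttle, 4 of 5 members were higher, with a median change of 1.50. Cpt1a, the outer membrane transferase that limits the entry of long chains, changed least of the 4: values were 1929, 1419 and 1750.2 in GF males, 2884, 2034 and 2098 in CV males, 1257, 1694 and 1146 in GF females and 2574, 2377 and 2053 in CV females, without overlap in either sex, and the change was 0.62 ± 0.18 (SE, adjusted p = 0.00715). The translocase Slc25a20 reached 314, 435 and 353 in GF males, 1297, 695 and 811 in CV males, 305, 455 and 153 in GF females and 944, 1268 and 1289.7 in CV females. It was 3.13 times higher in CV by the ratio of means, with a log2 change of 1.68 ± 0.24 (SE, adjusted p = 2.40e-05). Cpt2, the inner membrane transferase, showed 552, 685 and 506 in GF males, 1848, 882 and 949 in CV males, 323, 423 and 268 in GF females and 1419, 1305 and 1239 in CV females. Its change was 1.50 ± 0.20 (SE, adjusted p = 1.32e-05). For Crat, which forms acetylcarnitine, the values were 108, 79.8 and 135 in GF males, 497, 242 and 367 in CV males, 172, 189 and 123 in GF females and 579.6, 599.9 and 708 in CV females. It had the largest change of the shuttle, 1.86 ± 0.20 (SE, adjusted p = 2.42e-06), and no overlap over the 12 libraries. The peroxisomal transferase Crot was the exception, at 3991, 3278 and 3045 in GF males, 4016, 3137 and 3494 in CV males, 2384, 3216 and 1549 in GF females and 4249, 3654 and 4026 in CV females. It overlapped in males and not in females, and its change was 0.42 ± 0.20 (SE, adjusted p = 0.0799) over both sexes.

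All 11 members of mitochondrial beta-oxidation were higher over both sexes, in males and in females, with median changes of 1.84, 1.29 and 2.31, and in each of them every CV library exceeded every GF library. Of all genes tested 32.3%, 14.1% and 29.8% were called higher in these comparisons, and 15.6% were separate in this way. Acads (ENSMUSG00000029545, chr5:115110299-115119346, minus strand, GRCm38), the short-chain acyl-CoA dehydrogenase, had the largest change of all 39 members. It was at 139, 196 and 170.1 in GF males, 1433, 550.1 and 542 in CV males, 89.1, 194 and 57.5 in GF females and 1118, 1077 and 1185 in CV females. The 3 CV female libraries and CV male 1 lay highest, and CV male 2 and CV male 3 between these and GF. The ratio of means was 6.99 and the log2 change 2.83 ± 0.28 (SE, adjusted p = 1.24e-06), with 2.17 ± 0.40 in males (adjusted p = 0.00182) and 3.48 ± 0.40 in females (adjusted p = 9.11e-06). Decr1, a dienoyl-CoA reductase for unsaturated chains, had 425, 459 and 468 in GF males, 1398, 1049 and 1038 in CV males, 254, 423 and 255 in GF females and 1387, 1503 and 1804 in CV females. It rose by 1.86 ± 0.17 (SE, adjusted p = 9.34e-07). Hadh, which oxidizes medium- and short-chain hydroxyacyl-CoA, had 619, 797 and 563 in GF males, 2261, 1229.9 and 1762 in CV males, 352, 713 and 355 in GF females and 2231, 2287 and 2122 in CV females, a change of 1.84 ± 0.21 (SE, adjusted p = 3.67e-06).

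The largest adjusted p values of this branch were those of Acadm and Acadvl, the medium-chain and very-long-chain dehydrogenases. Acadm measured 1010.1, 764 and 828 in GF males, 1828, 1349 and 1764 in CV males, 755, 1079.9 and 690.0 in GF females and 1789.7, 1783 and 1775 in CV females. The CV libraries other than CV male 2 lay within 1764 to 1828, and the change was 1.02 ± 0.17 (SE, adjusted p = 0.000105). Acadvl measured 334, 264 and 347 in GF males, 1922, 496 and 472 in CV males, 408, 237 and 347 in GF females and 1819.5, 1458 and 1857 in CV females. Here CV male 2 and CV male 3 lay near the highest GF library and the other 4 CV libraries far above it, and the change was 1.84 ± 0.29 (SE, adjusted p = 4.86e-05). With the ribosomal RNA covariate the change of Acadvl was -1.17, and 42.9% of its exonic bases overlap Dvl2 on the opposite strand. The remaining 6 were the long-chain dehydrogenase Acadl (1.40), the trifunctional protein subunits Hadha (1.27) and Hadhb (1.73), the thiolase Acaa2 (1.98), the enoyl-CoA isomerase Eci1 (1.67) and Etfdh (1.92), which passes electrons to ubiquinone. Adjusted p values of these 6 were 4.87e-06 to 2.76e-05. Hadhb shares 62.4% of its 50-base words with other loci, among them the pseudogenes Gm13910 and Gm9108, so its count is uncertain.

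**Figure D3:**
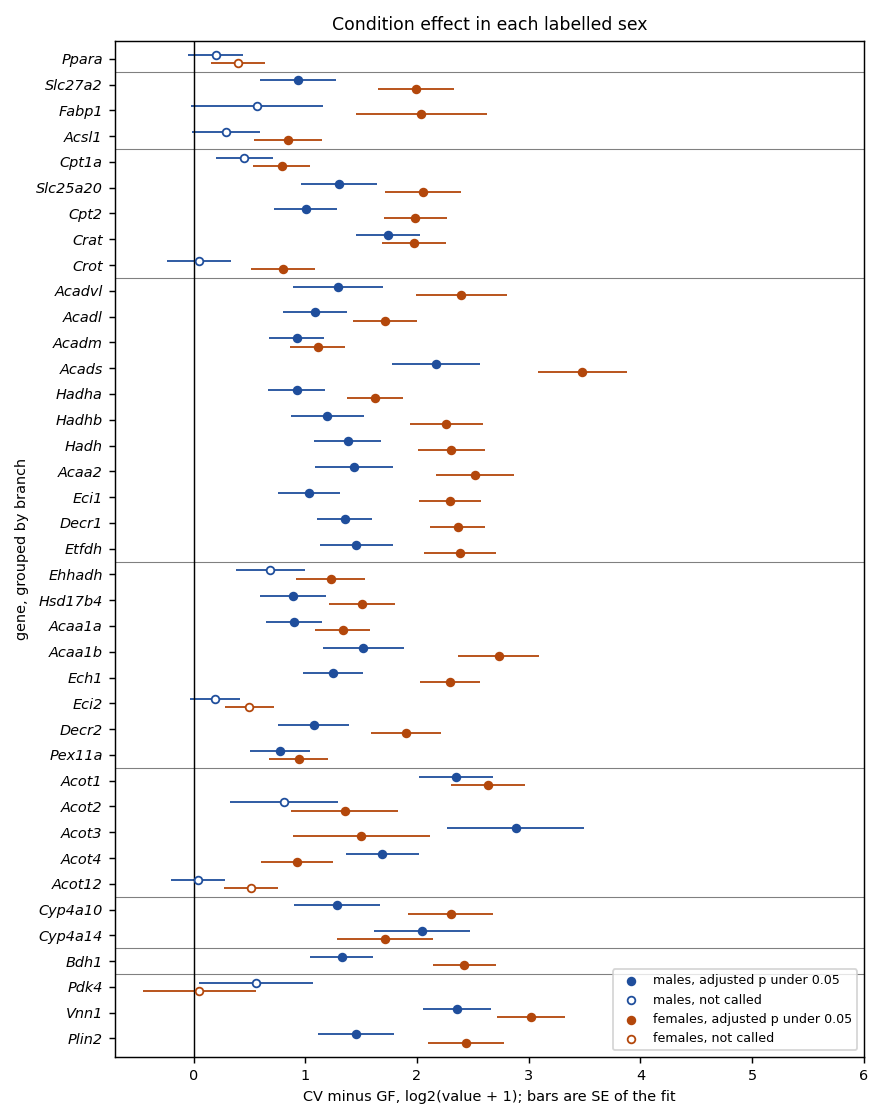
CV minus GF change on the log2(value + 1) scale (horizontal axis, bars are SE of the fit, n = 3 libraries per group) for each member in libraries labelled male (blue) and female (orange); filled points have an adjusted p under 0.05. In 35 of 39 members the female point lies to the right of the male point, and open points cluster near 0 for Ppara, Eci2, Acot12 and Pdk4. The median female minus male difference is 0.70 in members and 0.064 in all genes tested.

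In peroxisomal beta-oxidation 7 of 8 members were higher, with a median change of 1.16, and none overlapped within a sex. Of all genes tested, every CV library exceeded every GF library in 22.0% among males and in 34.0% among females. Ech1, a dienoyl-CoA isomerase, was at 1289, 2031 and 1805 in GF males, 4135, 3376 and 4534 in CV males, 951, 1221 and 820.4 in GF females and 4124, 4879.6 and 5577 in CV females. Its change was 1.77 ± 0.19 (SE, adjusted p = 2.24e-06). Acaa1b, a peroxisomal thiolase, was at 3591, 1898 and 3214 in GF males, 12734, 7572 and 5378 in CV males, 971, 1319 and 1903 in GF females and 10548, 8865 and 7620.1 in CV females. It had the largest change of the branch, 2.13 ± 0.26 (SE, adjusted p = 5.25e-06), although 46.2% of its 50-base words occur in other genes, mainly its paralog Acaa1a, which changed by 1.12. The reductase Decr2 was at 924, 1408 and 1277 in GF males, 3725, 1780.0 and 2347 in CV males, 901, 1208 and 592 in GF females and 2933, 3517 and 3265 in CV females. Its change was 1.49 ± 0.22 (SE, adjusted p = 3.43e-05).

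Changes smaller than those of Ech1, Acaa1b and Decr2 were found for the bifunctional enzymes and for Pex11a. Ehhadh, the L-bifunctional enzyme, read 1212, 1594 and 1616 in GF males, 2840.1, 1797 and 2563 in CV males, 1123, 2389 and 1062 in GF females and 3458, 3059 and 3473 in CV females. GF female 2 lay above CV male 2, so the 12 libraries overlapped, and the change was 0.96 ± 0.22 (SE, adjusted p = 0.00126) over both sexes and 0.69 ± 0.31 (SE, adjusted p = 0.103) in males. Hsd17b4, the D-bifunctional enzyme, changed by 1.20 and Pex11a, a peroxisome division factor, by 0.85. Eci2, an enoyl-CoA isomerase, was the member of the branch not called, at 1649, 1475 and 1617 in GF males, 1867, 1724 and 1823 in CV males, 1532, 1508 and 1321 in GF females and 1801, 2199 and 2174 in CV females. All its CV values exceeded all its GF values, but the distance was small, 0.35 ± 0.16 (SE, adjusted p = 0.0651), and the sign turned (-0.115) with scaling to reads outside the abundant loci.

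Acyl-CoA thioesterases, which release fatty acids from CoA, were higher in 4 of 5 cases, with a median change of 1.31. The cytosolic Acot1 had values of 53.7, 41.2 and 76.5 in GF males, 289, 224 and 362 in CV males, 87.5, 154 and 59.4 in GF females and 499, 535 and 746 in CV females. It was 5.62 times higher in CV by the ratio of means, without overlap, and changed by 2.49 ± 0.23 (SE, adjusted p = 9.34e-07). Mitochondrial Acot2 was low, at 37.6, 41.2 and 28.3 in GF males, 52.6, 42.9 and 108 in CV males, 45.3, 106 and 17.2 in GF females and 95.5, 129.7 and 119 in CV females. GF female 2 stood above CV female 1, and the change was 1.08 ± 0.34 (SE, adjusted p = 0.0118). The fewest reads behind a value of Acot2 were 9. Peroxisomal Acot3 was at 9.85, 12.0 and 11.3 in GF males, 74.4, 28.6 and 311 in CV males, 58.9, 229 and 139.9 in GF females and 264, 355 and 467 in CV females. Its male GF values rested on as few as 8 reads, its change was 2.19 ± 0.43 (SE, adjusted p = 0.000391), and in males it was 2.88, or 1.975 without CV male 3. Peroxisomal Acot4 was at 60.9, 30.6 and 35.4 in GF males, 132, 82.7 and 214 in CV males, 127, 141 and 130.3 in GF females and 218, 249.9 and 296 in CV females. Its change was 1.31 ± 0.23 (SE, adjusted p = 0.000142). Acot12, an acetyl-CoA thioesterase, was not called, at 732, 560.3 and 648 in GF males, 909, 544 and 586 in CV males, 716, 622 and 663 in GF females and 1091, 914 and 868 in CV females, with an overlap in males and a change of 0.28 ± 0.17 (SE, adjusted p = 0.166). Acot1, Acot2, Acot3 and Acot4 lie next to each other on chromosome 12 and share 14.4% to 33.7% of their 50-base words with other loci, among them Acot5 and at least 1 of each other, so reads may be split between them.

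Both microsomal omega-hydroxylases were higher in each sex. Cyp4a10 was at 2911, 1717 and 1628 in GF males, 6181, 2989 and 6408 in CV males, 2278, 3689 and 1461 in GF females and 9485, 10889.8 and 14229.9 in CV females. Its change was 1.79 ± 0.27 (SE, adjusted p = 3.85e-05), and 30.5% of its 50-base words are shared with Cyp4a32 and Cyp4a31. Cyp4a14 was at 1298, 455 and 625 in GF males, 2832, 1995 and 4613 in CV males, 3384, 3923 and 1394 in GF females and 9389, 7441 and 9320.4 in CV females. Its change was 1.88 ± 0.30 (SE, adjusted p = 6.74e-05). In both genes the conditions were separate within each sex and overlapped between the sexes.

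Bdh1, which interconverts acetoacetate and beta-hydroxybutyrate, was the ketone body step among the members. It was at 528, 713 and 673 in GF males, 1914, 1183 and 1766 in CV males, 392, 681 and 353 in GF females and 2191, 2538 and 2638 in CV females. No GF library reached the lowest CV library, the ratio of means was 3.66 and the change 1.88 ± 0.20 (SE, adjusted p = 2.04e-06). Of the other PPARA targets, Vnn1 (ENSMUSG00000037440, chr10:23894688-23905343, plus strand, GRCm38), a pantetheinase, was at 123, 59.9 and 128 in GF males, 615, 374 and 565 in CV males, 95.1, 128 and 105 in GF females and 701, 869 and 1141 in CV females. It had the smallest adjusted p of the members, with a change of 2.69 ± 0.22 (SE, adjusted p = 3.88e-07). Plin2, which coats lipid droplets, was at 1149.8, 1331 and 1642 in GF males, 7105, 3061 and 2382 in CV males, 1114, 1266 and 820.4 in GF females and 6227, 5608 and 5283 in CV females. Its change was 1.95 ± 0.24 (SE, adjusted p = 6.95e-06). Pdk4, a kinase that restrains pyruvate dehydrogenase, was not called. Its values were 38.5, 7.98 and 17.0 in GF males, 29.7, 29.4 and 20.9 in CV males, 60.4, 37.2 and 15.3 in GF females and 34.9, 31.6 and 35.5 in CV females. They overlapped in both sexes, the change was 0.30 ± 0.36 (SE, adjusted p = 0.473), and the fewest reads behind a value were 6.

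**Figure D4:**
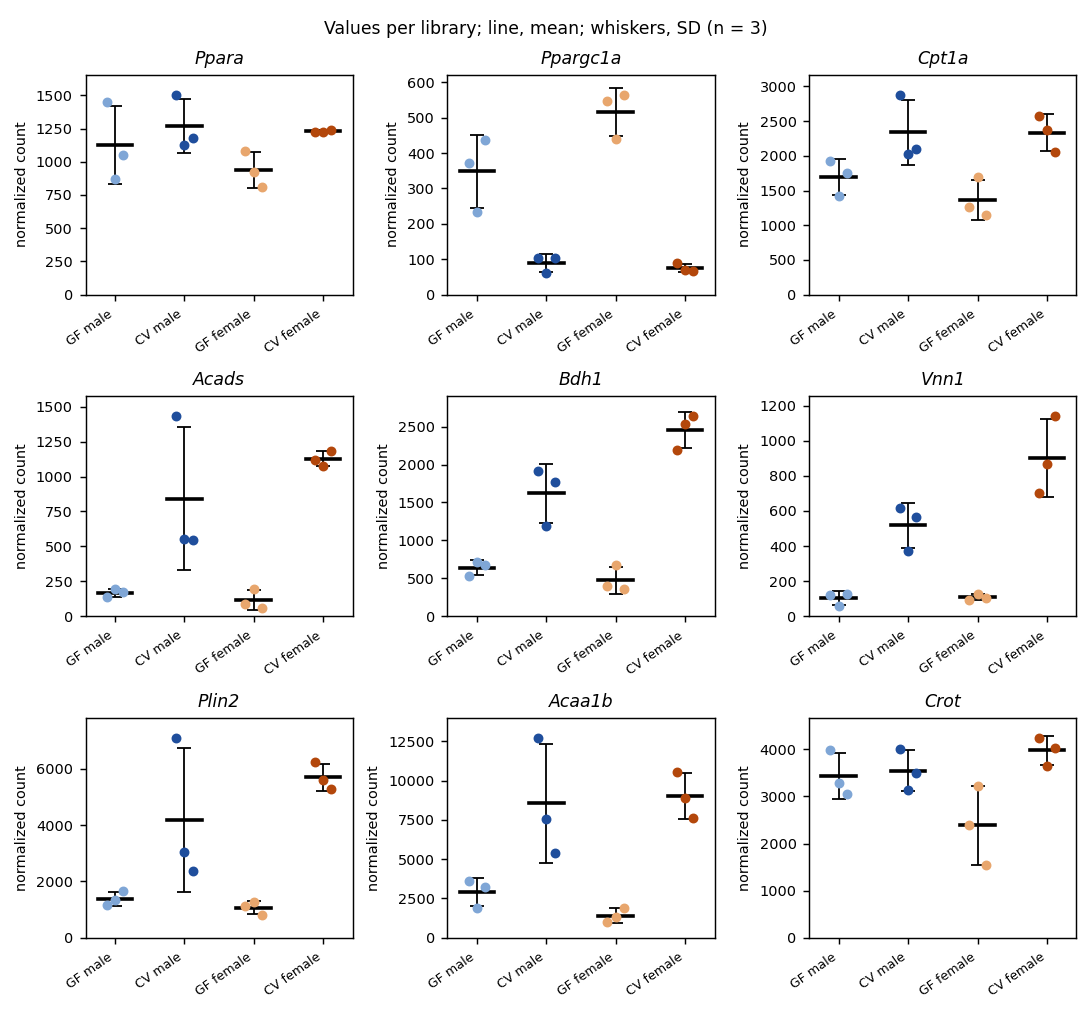
Normalized counts per library (points) of Ppara, Ppargc1a, Cpt1a, Acads, Bdh1, Vnn1, Plin2, Acaa1b and Crot in the 4 groups, with mean (line) and SD (whiskers, n = 3); vertical axes start at 0. Vnn1, Bdh1 and Acads separate the conditions in each sex, Ppara and Crot overlap in males, and the co-activator gene Ppargc1a runs the other way.

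A further 60 genes of the pathway were counted, of which 59 were tested. Over both sexes 39 were higher, 6 were lower and 14 were not called, with a median change of 0.879. Of all genes tested 32.3% were higher and 28.7% lower. In males 20 were higher and 3 lower, against 14.1% and 15.4% of all genes tested. Every CV library exceeded every GF library over all 12 libraries in 18 of the 60, against 15.6%. Among 6 other ketone body genes 5 were higher. The thiolase Acat1 changed by 2.03 ± 0.25 (SE, adjusted p = 6.30e-06), with CV above GF throughout. Slc16a6, a ketone body exporter, was lower, at 132, 54.6 and 99.2 in GF males, 15.6, 16.7 and 17.3 in CV males, 99.6, 39.9 and 61.3 in GF females and 21.9, 42.3 and 36.1 in CV females. Its change was -1.65 ± 0.27 (SE, adjusted p = 8.10e-05), with no overlap in males and an overlap in females.

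Other oxidation genes mostly shared the direction of the members. Of 14 other mitochondrial genes tested 9 were higher and 0 lower, led by Echs1, the short-chain enoyl-CoA hydratase, at 1.98 ± 0.19 (SE, adjusted p = 9.34e-07), and Etfa, an electron transfer flavoprotein subunit, at 1.82 ± 0.22 (SE, adjusted p = 4.91e-06). Of 15 other peroxisomal genes 14 were higher and 0 lower, among them the racemase Amacr (1.46) and the CoA hydrolase Nudt19 (1.48). Of 8 other uptake and activation genes 5 were higher, with the acyl-CoA synthetase Acsl5 at 2.34 and the bile acid and fatty acid ligase Slc27a5 at 1.54. Of 6 other omega-oxidation genes 3 were higher, among them Cyp4a31 (1.65) and the fatty aldehyde dehydrogenase Aldh3a2 (1.18). These counts stand against 32.3% higher and 28.7% lower among all genes tested.

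Of 10 partners, co-regulators and sister receptors of PPARA, 3 were higher and 5 lower over both sexes. Among all genes tested 32.3% were higher, a share near that of the list, and 28.7% lower. In males 1 was higher and 2 lower, against 14.1% and 15.4% of all genes. In females 2 were higher and 5 lower, against 29.8% and 26.0%. Ppargc1a, the co-activator PGC-1alpha, was the clearest of the lower genes. It was at 372, 234 and 438 in GF males, 104, 60.4 and 104 in CV males, 546, 439 and 565 in GF females and 88.8, 69.9 and 66.2 in CV females. Every CV library was below every GF library, the change was -2.36 ± 0.20 (SE, adjusted p = 4.86e-07), and over the 12 omissions of 1 library it was -2.49 to -2.23. The co-repressor gene Ncor1 was at 1445, 1037 and 1095 in GF males, 549, 793 and 817 in CV males, 1318, 1178 and 1472 in GF females and 535, 571 and 574 in CV females. Its change was -0.98 ± 0.17 (SE, adjusted p = 0.000107), again without overlap. The related co-activator Ppargc1b was at 305, 87.8 and 156 in GF males, 138, 111 and 103 in CV males, 248, 186 and 368 in GF females and 109, 124 and 84.3 in CV females. In females every CV library was below every GF library, while GF male 2 lay below all 3 CV males, and the change was -0.88 ± 0.26 (SE, adjusted p = 0.00766). The deacetylase gene Sirt1 was at 126, 53.2 and 92.1 in GF males, 57.2, 50.1 and 59.96 in CV males, 152, 93.1 and 167 in GF females and 66.5, 67.2 and 35.5 in CV females. The females were again separate, GF male 2 lay within the range of the CV males, and the change was -0.95 ± 0.24 (SE, adjusted p = 0.00298). Ppard, which encodes a sister receptor, was at 18.8, 23.9 and 9.92 in GF males, 7.29, 14.3 and 16.4 in CV males, 36.2, 10.6 and 30.7 in GF females and 7.15, 7.39 and 7.23 in CV females. CV lay below GF in females, and the conditions overlapped in males. It changed by -0.98 ± 0.37 (SE, adjusted p = 0.0281) and lost its call without any 1 of GF male 1, GF male 2, GF female 1, GF female 3, CV male 1, CV female 1 or CV female 3 (-1.24 to -0.82 over the 12 omissions). Higher were the partner receptor Rxra (0.54), the mitochondrial deacetylase Sirt3 (0.48) and, at low values of 10.6 to 66.1, the sister receptor Pparg (1.46). Rxra, Sirt3 and Pparg were named after their values were seen. With scaling to all reads Ppargc1a (-1.80) and Pparg (1.99) were still called, whereas Ncor1 (-0.42), Ppargc1b (-0.32), Sirt1 (-0.39) and Ppard (-0.47) were not. Rxra (0.083) and Sirt3 (0.022) were not called with scaling to reads outside the abundant loci, and their sign turned with hepatocyte scaling (-0.57 and -0.63), under which Ppargc1a was at -3.47 and Pparg, at 0.37, was not called.

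The change was larger in females than in males in 35 of 39 members, but no difference passed the test. The median female minus male difference was 0.70 in members and 0.064 in all genes tested. The share of all genes with a larger change in females was not counted, and the males include the library labelled CV male 3. In the interaction, 0 members were called by limma, edgeR or DESeq2, as were 0% of all genes by limma, and the smallest adjusted p of a member was 0.417. An unadjusted p under 0.05 was found in 11 members, all with the larger change in females, and in 1382 of all genes (11.7%). Among these 11, Acads changed by 2.17 in males and 3.48 in females, an interaction of 1.31 ± 0.56 (SE). Eci1 (1.26 ± 0.40) and Acaa1b (1.21 ± 0.51) were similar in size. Without CV male 1, the CV male library with the low ribosomal RNA share, 6 members were called, Slc27a2, Cpt2, Acadvl, Hadhb, Etfdh and Plin2, with interactions of 1.32 to 1.77. The CV males of that fit were CV male 2 and CV male 3, and the label of CV male 3 was contradicted. The matching count over all genes is not given here. Leaving out CV male 2 and CV male 3 leaves CV male 1 alone in its group, so no calls are given for that fit. The part of library composition in this difference was not tested.

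Calls within a sex depended on single libraries more often than calls over both sexes. Over the 12 omissions of 1 library, the number of members called was 33 to 35 over both sexes, 19 to 30 in males and 28 to 36 in females. It fell to 19 in males without GF male 1, to 20 without CV male 1 and to 21 without GF male 3. Calls among all genes over these omissions were 6601 to 7445 over both sexes, 1604 to 3884 in males and 5518 to 6964 in females. In males they were 1604, 2183 and 2135 without GF male 1, CV male 1 and GF male 3, against 3474 with all 12 libraries. In males Slc27a2 lost its call without GF male 1, GF male 2, GF male 3, GF female 1, GF female 3, CV male 1, CV female 1, CV female 2 or CV female 3 (changes of 0.47 to 1.18). In males Pex11a lost its call without GF male 1, GF male 2, GF male 3, CV male 1, CV male 2, CV male 3, CV female 2 or CV female 3 (changes of 0.67 to 0.91). In males Acadvl lost its call without GF male 1, GF male 2, GF male 3 or CV male 1 (changes of 0.63 to 1.64). In males Cyp4a10 lost its call without GF male 2, GF male 3, CV male 1 or CV male 3 (changes of 1.09 to 1.65). The other male calls that were lost belonged to Cpt2, Hsd17b4, Acadl, Hadha, Decr2, Slc25a20, Eci1 and Hadhb, which lost them without 1 to 3 of GF male 1, GF male 3 and CV male 1. In females Acot3 lost its call without GF male 1, GF male 2, GF male 3, GF female 1, GF female 3, CV male 1, CV female 1, CV female 2 or CV female 3 (changes of 0.97 to 1.94). In females Acot2 lost its call without GF female 1, GF female 3, CV female 2 or CV female 3 (changes of 0.70 to 1.98). Acot4, Acsl1, Crot, Cpt1a and Fabp1 lost the female call without 1 to 4 of GF female 1, GF female 3 and the CV females. No called member changed its direction under any of these omissions.

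In all, 3 members differed between the labelled sexes over both conditions, and all were lower in males: the male minus female difference was -2.69 ± 0.43 (SE, adjusted p = 0.00346) in Acot3, -1.31 ± 0.23 (SE, adjusted p = 0.00636) in Acot4 and -1.71 ± 0.30 (SE, adjusted p = 0.00656) in Cyp4a14. Of all genes 0.433% were called lower and 0.73% higher in males. In GF livers the male and female libraries did not overlap in Acot3, with 9.85 to 12.0 in males and 58.9 to 229 in females. The library labelled CV male 3 fell among the females in this gene, at 311 against 74.4 and 28.6 in the other CV males and 264 to 467 in CV females. In Acot4 it was at 214, against 132 and 82.7 in the other CV males and a lowest CV female value of 218. Without it the differences were -3.14, -1.48 and -1.87, with adjusted p values of 6.17e-06, 0.000437 and 0.00128, and the CV minus GF change of Acot3 over both sexes was 1.74 (adjusted p = 0.00022). Without CV male 1, 5 members were called lower in males, and the matching count over all genes is not given here.

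**Figure D5:**
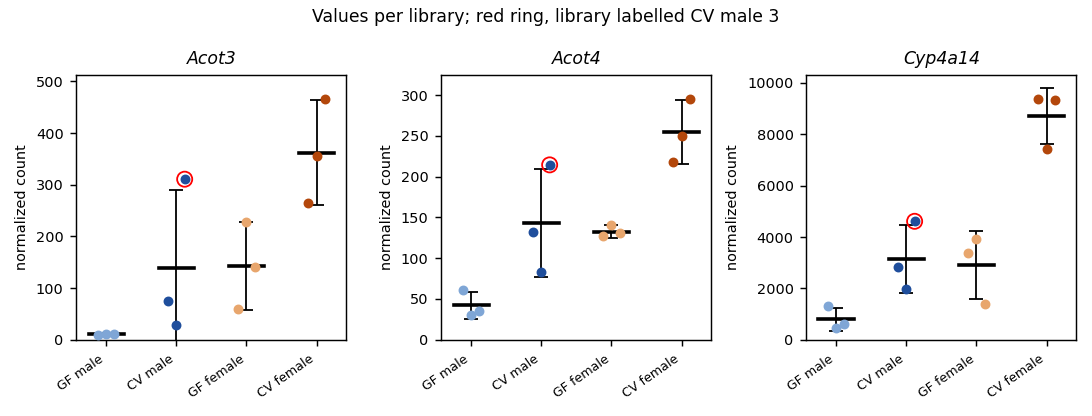
Normalized counts per library of Acot3, Acot4 and Cyp4a14 in the 4 groups, with mean (line) and SD (whiskers, n = 3); the red ring marks the library labelled CV male 3, and the lower whisker of Acot3 in CV males runs past 0 and is cut there. In Acot3 this library is at 311, within the CV female range of 264 to 467 and above the other CV males at 74.4 and 28.6.

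Levels were compared between members only per kilobase of transcript. In CV livers Fabp1 stood highest, with a mean of 150431 normalized counts per kilobase, followed by Acaa2 (8033), Acaa1b (5202), Cyp4a10 (3966) and Ech1 (3503). In GF livers Fabp1 (75112) and Acaa2 (2118) led as well, and Acads stood at 75.3, against 526 in CV. Pdk4 was lowest in both, at 8.44 and 8.71. Ppara, at 302 and 366, lay far below these leading genes.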

How the data were processed

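Liver RNA of 12 mice was sequenced from stranded poly(A) libraries. Per the labels, the submitters' processing notes name HTSeq 0.6.1p1, DESeq2 and GRCm38. The aligner, the annotation and the strand setting of the counting are not given in the sources used here. Deposited values are a normalized signal per gene, for which the authors had scaled the gene counts of each library by a single factor. In every library 100% of values were whole multiples of 1 step (tolerance 0.01 reads), and the recovered factors equal median-of-ratios factors over 12512 genes. The paper supplied with the series describes another experiment and was used for style only.

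Genes with a mean value of at least 10 (11782) were tested with limma 3.58.1 (R 4.3.3) on log2(value + 1), with 1 mean per condition and labelled sex, a variance trend and Benjamini-Hochberg adjustment at 0.05. A change on this scale understates that of low genes. edgeR 4.0.16 (quasi-likelihood, 7316 genes called over both sexes) and DESeq2 1.42.0 were run on recovered reads. Alternatives covered the pseudocount, the filter, the scaling, covariates, a replicate block and the omission of each library. Symbols and positions came from the GRCm38 annotation, which held 97.9% of identifiers. Per-library values are given for Ppara, for the members with the 3 smallest and 2 largest adjusted p of each branch, for members that overlap within a sex, and for pathway genes that were lower. 1 gene that the rule selects is not reported here. Members, lists and tests were chosen with earlier results of these data known. No batch is labelled, and p values cover the spread between these mice only. Reads are not independent molecules.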

Additional observations from a re-analysis of the deposited data

Results flagged for a closer look

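In 78 checks of a member within a condition (6 libraries each), 3 single libraries lay further from the rest than Dixon's 95% limit for 6 values, and about 1 in 20 such checks would do so by chance. Ppara was 1505.67 in CV male 1, against 1130 to 1242 in the other CV libraries. Acadm was 1349.15 in CV male 2, against 1764 to 1828. Acot2 was 106.4 in GF female 2, against 17.3 to 45.3 in the other GF libraries. The same library had the highest summed blood markers, 32885, and the part of these in the Acot2 value was not tested.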

How the results depend on the processing

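The number of members higher in CV stayed within 1.5 times the reported one, with 0 lower, under other pseudocounts (0.5 and 5), other filters on low values, scaling to all reads or with TMM factors, edgeR and DESeq2. Exceptions were the ribosomal RNA covariate, with 0 members called over both sexes, 0 in males and 0 in females, and scaling to hepatocyte markers, with 15, 4 and 5 called. Scaling to all reads, to reads outside the abundant loci and to hepatocyte markers shifted the median of all genes to 0.62, -0.38 and -1.02, and the members lay 1.43, 1.41 and 1.40 above it. Scaling to reads outside the abundant loci called 5 members different between the sexes, and the matching count over all genes is not given here. Under it 34 members had a positive change over both sexes, 34 in males and 35 in females, with medians of 1.035, 0.787 and 1.358. It also lost 17 calls of members and named pathway genes. Leaving out 1 library at a time gave 19 to 30 members in males, 0 to 6 in the interaction and 3 to 5 between the sexes. For the interaction and the sexes, counts over all genes under these omissions are not given here. Over the same omissions, changes ranged from -0.045 to 0.16 for Crot in males, -0.187 to 0.183 for Acot12 in males and -0.471 to 0.484 for Pdk4 in females. Of all genes, 3474 were called in males as reported, 1604 without GF male 1, 1031 with hepatocyte scaling and 3 with the covariate, and over both sexes 7194 and, with the covariate, 0. The cause of these shifts was not tested.

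Scaling to reads outside the abundant loci turned the sign of Ppara over both sexes (-0.16), Ppara in males (-0.10), Ppara in females (-0.22), Acsl1 in males (-0.009), Crot over both sexes (-0.038), Crot in males (-0.25), Eci2 over both sexes (-0.12), Eci2 in males (-0.11), Eci2 in females (-0.12), Acot12 over both sexes (-0.18), Acot12 in males (-0.26), Acot12 in females (-0.10), Pdk4 over both sexes (-0.14) and Pdk4 in females (-0.55). The ribosomal RNA covariate turned the sign of Slc27a2 over both sexes (-0.19), Slc27a2 in males (-0.056), Slc27a2 in females (-0.32), Acadvl over both sexes (-1.17), Acadvl in males (-0.52), Acadvl in females (-1.83), Etfdh in females (-0.24), Acot12 over both sexes (-0.59), Acot12 in males (-0.48), Acot12 in females (-0.69), Plin2 in females (-0.056) and Amacr over both sexes (-0.046). Removing a trend with transcript length turned Eci2 over both sexes (-0.10), Eci2 in males (-0.12) and Eci2 in females (-0.080). TMM scaling turned Crot in males (-0.010), Acot12 in males (-0.017) and Pdk4 in females (-0.021). edgeR turned Crot in males (-0.013), Pdk4 over both sexes (-0.009) and Pdk4 in females (-0.24). DESeq2 turned Pdk4 in females (-0.22). None of these turned values passed the threshold.

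GF and CV libraries share replicate numbers only by name: deviations of same-numbered libraries from their group means correlated at -0.228 to 0.019. Between the labelled sexes they correlated at 0.118 to 0.193 in CV and 0.059 to 0.403 in GF. With the replicate block 34 members were called over both sexes, 28 in males and 35 in females, with 0 in the interaction and 3 between the sexes.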
